A study of Mus musculus with 2 samples.

Results

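The microRNA seed group named for Mir15a comprises the 8 mouse genes Mir15a, Mir16-1, Mir15b, Mir16-2, Mir497, Mir195a, Mir322 and Mir503. They were taken by gene identifier, through annotation release M21 of build mm10, from the 2202 microRNA genes counted in each of 2 heart libraries. The source label of both was adult female heart tissue of strain 5xFAD/CAST, 8 to 10 months old. The libraries form 1 group of biological replicates 1 and 2. The 5xFAD line carries mutated human amyloid precursor protein and presenilin genes behind a neuronal promoter, CAST is an inbred strain derived from wild mice, and the labels do not say whether these animals carried the transgenes. There was no control group. Both libraries carry 1 donor identifier and separate biosample identifiers. Whether they came from separate animals is not settled, so the spread between them may be technical. Every test between the libraries measures departure from counting error in these libraries and compares no conditions.

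MicroRNAs are short RNAs cut from hairpin precursors, and each hairpin can give a product from its 5p and from its 3p arm. A product pairs with messenger RNAs mainly through its seed, bases 2 to 8 from the 5′ end, so microRNAs that share a seed share many predicted targets. Targets of this group include cyclins, the checkpoint kinase Chek1 and the survival gene Bcl2, and in the mouse heart the group, Mir195a above all, is known for the arrest of cardiomyocyte division after birth. Mir322, called miR-424 in humans, and Mir503 are known from muscle and early heart differentiation.

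The mature 5p sequences are shown because the seed, in capitals, defines the group. They are from RefSeq (build GRCm38.p6), where all 8 genes had a match.
miR-15a-5p: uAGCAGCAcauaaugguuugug
miR-15b-5p: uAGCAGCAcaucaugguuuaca
miR-16-5p: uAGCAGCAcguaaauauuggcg
miR-195a-5p: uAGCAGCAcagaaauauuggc
miR-497a-5p: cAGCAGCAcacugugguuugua
miR-322-5p: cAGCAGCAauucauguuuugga
miR-503-5p: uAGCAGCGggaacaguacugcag
Of the 8 genes, 7 carried the seed AGCAGCA. Mir503 was the exception, with AGCAGCG, which differs from miR-15a-5p by A8G (positions counted from 1 at the 5′ end). Outside the seed the sequences diverged. Compared position by position from the 5′ end, miR-15b-5p matched miR-15a-5p at 18 of 22 bases, miR-322-5p at 15 of 22 and miR-503-5p at 11 of 22. The closest of the non-identical sequences were miR-195a-5p and miR-16-5p, with 19 of 21 bases alike. The 8 products of the 3p arms had 8 different seeds, so the shared seed belongs to the 5p arms. The counts were per gene and do not separate the arms.

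Mir16-1 and Mir16-2 encode the same miR-16-5p, and reads that fit several loci were assigned to no gene. The hairpins are shown with the run they share in capitals.
Mir16-1 hairpin (chr14:61631880-61631972, minus strand): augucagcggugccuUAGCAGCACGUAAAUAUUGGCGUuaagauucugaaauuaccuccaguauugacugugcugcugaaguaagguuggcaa
Mir16-2 hairpin (chr3:69009902-69009996, plus strand): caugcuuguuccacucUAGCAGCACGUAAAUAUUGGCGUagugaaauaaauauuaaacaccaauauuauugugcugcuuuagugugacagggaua
The shared run was 23 bases long, the 22 bases of miR-16-5p and 1 more. A read of miR-16-5p that ended within it matched both loci. The 3p products differed between these genes and are shown, seeds in capitals, because they can be told apart.
miR-16-1-3p: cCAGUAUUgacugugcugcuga
miR-16-2-3p: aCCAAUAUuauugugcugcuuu
The counts of Mir16-1 and Mir16-2 are therefore lower limits, and the level of miR-16-5p was not measured by these tables. Reads at several loci made up 42.4% of 13233055 reads in replicate 1 and 43.2% of 8930289 reads in replicate 2. None of the other mature sequences of the group was found whole in the hairpin of another of the 2202 microRNA genes. The rest of the genome was not searched, so losses to other loci are not excluded. The longest partial match was 16 bases, between miR-195a-5p and the hairpin of Mir195b.

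The 8 genes lie in pairs at 4 loci, each pair on 1 strand and 54 to 241 bases apart. Mir15a (ENSMUSG00000093007.1, chr14:61632027-61632110, minus strand) and Mir16-1 (ENSMUSG00000092995.1) lie within Dleu2, a noncoding gene of the region deleted in human chronic lymphocytic leukaemia. Mir15a was intronic, and Mir16-1 overlapped an annotated Dleu2 exon. Mir15b (ENSMUSG00000065580.2, chr3:69009772-69009835, plus strand) and Mir16-2 (ENSMUSG00000065606.1) lie in introns of Smc4, which encodes a condensin subunit. Mir497 (ENSMUSG00000105220.1, chr11:70234717-70234800, plus strand) and Mir195a (ENSMUSG00000065411.2, chr11:70235042-70235135, plus strand) had no annotated host. Mir322 (ENSMUSG00000065418.1, chrX:53054255-53054349, minus strand) and Mir503 (ENSMUSG00000076122.1, chrX:53053984-53054054, minus strand) had none either.

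All 8 genes were detected, with mean levels from 40.1 ± 13.9 CPM for Mir503 to 4653 ± 5440.3 CPM for Mir195a (SD, n = 2). CPM is counts per 1000000 assigned counts, and detection was set at 1 CPM in both libraries, which 380 of the 2202 genes reached. The group together held 1.73% of the 4186560 assigned counts of replicate 1 (95% interval by the Clopper-Pearson method 1.72 to 1.74) and 0.649% of the 2877511 of replicate 2 (0.640 to 0.659), a mean of 1.19% ± 0.765 (SD, n = 2). Most of that gap came from Mir195a: without it the shares were 0.882% in replicate 1 and 0.569% in replicate 2. All intervals and limits account for counting error alone, because the reads carry no molecular identifiers and copies of 1 molecule may be counted more than once. CPM was not divided by hairpin length, because a read of this size class spans a whole mature product. How efficiently each product entered the library was not measured.

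**Figure D1:**
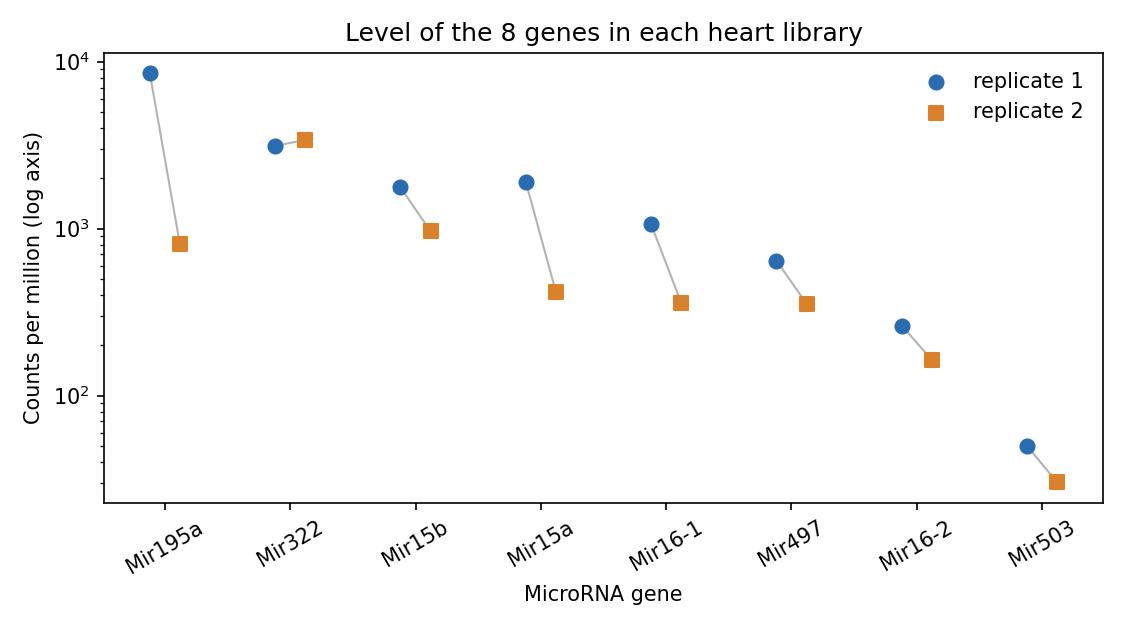
Level of each gene in CPM (log axis), with replicate 1 as circles and replicate 2 as squares, ordered by mean level. Mir195a stands at 8500.1 CPM in replicate 1 and 806 CPM in replicate 2, whereas Mir322 lies at 3133 and 3397 CPM.

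By assigned counts Mir195a, the member best known from the postnatal heart, had the highest mean level of the group and the widest spread. It had 35586 counts (8500.1 CPM) in replicate 1 and 2320 counts (806 CPM) in replicate 2. Among all 2202 genes it ranked 21 in replicate 1 and 68 in replicate 2. Mir497, which shares its locus, had 2693 counts (643 CPM) in replicate 1 and 1023 (356 CPM) in replicate 2. The lead of Mir195a rested on replicate 1, and in replicate 2 it was the third gene of the group.

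Mir322 was the steadiest of the 8 genes and led the group by assigned counts in replicate 2. It had 13118 counts (3133 CPM) in replicate 1 and 9774 counts (3397 CPM) in replicate 2, a mean of 3265 ± 186 CPM (SD, n = 2), at rank 32 and rank 34 of all genes. Mir503, the partner with the altered seed, was the lowest member, with 209 counts (49.9 CPM) in replicate 1 and 87 (30.2 CPM) in replicate 2. High and low members thus sat side by side at the locus on chromosome X.

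The genes of the Mir15 and Mir16 loci lay between these. Mir15b had 7393 counts (1766 CPM) in replicate 1 and 2773 (964 CPM) in replicate 2. Mir15a had 7969 counts (1903 CPM) in replicate 1 and 1204 (418 CPM) in replicate 2. The order of these genes thus depended on the library, with Mir15a ahead in replicate 1 and Mir15b ahead in replicate 2. Mir16-1 had 4445 counts (1062 CPM) in replicate 1 and 1035 (359.7 CPM) in replicate 2, and Mir16-2 had 1098 (262 CPM) and 471 (164 CPM), again as lower limits.

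By mean level the order was Mir195a, Mir322, Mir15b, Mir15a, Mir16-1, Mir497, Mir16-2 and Mir503, with Mir16-1 and Mir16-2 placed by their lower limits. The values of the 2 libraries overlapped at 4 of the 7 neighbouring places in this order: between Mir195a and Mir322, Mir15b and Mir15a, Mir15a and Mir16-1, and Mir16-1 and Mir497. At the places after Mir15a and after Mir16-1 the gene with the higher mean was nevertheless higher in each library. They did not overlap between Mir322 and Mir15b, between Mir497 and Mir16-2 or between Mir16-2 and Mir503. Mir16-1, Mir497, Mir16-2 and Mir503 took places 5 to 8 in that order in both libraries.

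The locus that supplied most of the group's assigned counts differed between the libraries. Mir497 and Mir195a held 52.8% of the group's counts in replicate 1 and 17.9% in replicate 2. Mir322 and Mir503 held 18.4% in replicate 1 and 52.8% in replicate 2. The Dleu2 pair held 17.1% and 12.0%, and the Smc4 pair 11.7% and 17.4%, in replicates 1 and 2. By assigned counts the leading locus was thus that of chromosome 11 in replicate 1 and that of chromosome X in replicate 2. Reads that fit both the Dleu2 and the Smc4 pair were assigned to neither. The shares therefore do not rank the loci by all their reads.

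Between the libraries, 7 of the 8 genes were higher in replicate 1 beyond counting error and Mir322 was lower. The test was a two-sided exact binomial test on each gene's counts given library totals scaled with edgeR's trimmed mean of M values (TMM), with Benjamini-Hochberg adjustment over the 309 genes with enough counts for the test, among them all 8 members. Of the 309 genes, 63.4% differed in either direction, 28.2% being higher in replicate 1 and 35.3% lower. The median log2 ratio of replicate 1 over replicate 2 was 0.79 over the 8 genes and -0.01 over the 309. Differences of more than 2-fold occurred in 3 of the 8 genes (37.5%) and in 57 of the 309 (18.4%). Among the 3 was Mir16-1, for which only reads unique to its locus were counted. Calls in the group are thus read against a background in which most tested genes differed.

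**Figure D2:**
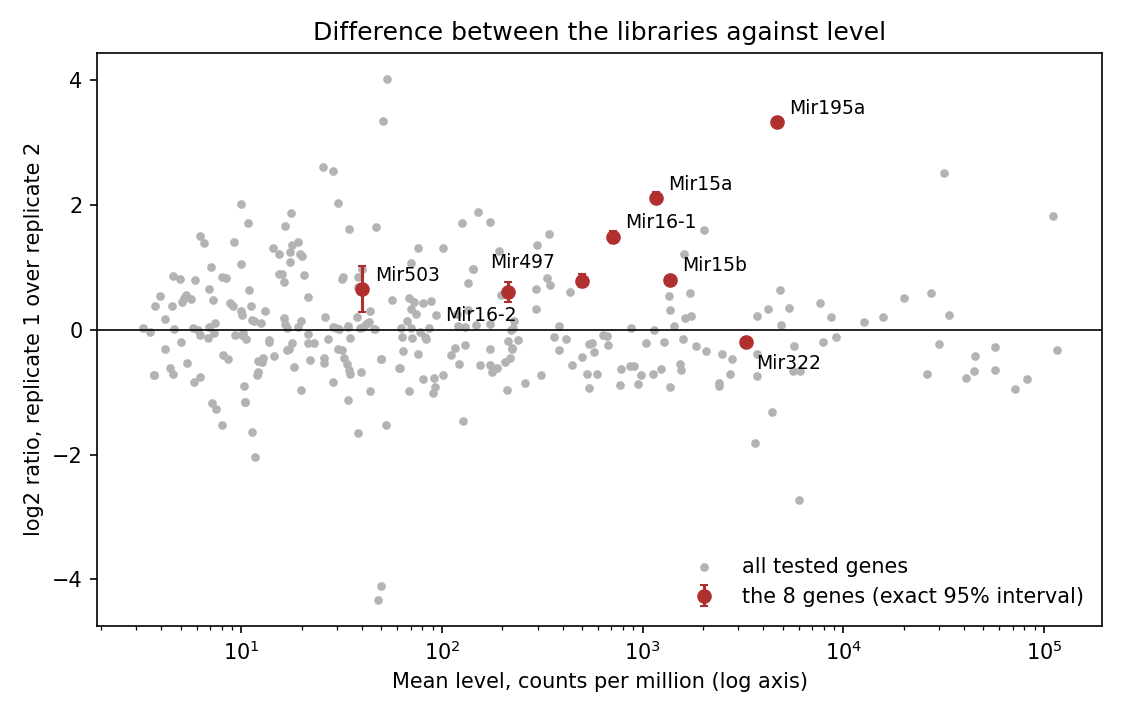
Log2 ratio of replicate 1 over replicate 2 (TMM-scaled) against mean CPM (log axis) for the 309 tested genes in grey and the 8 genes in red, with exact 95% intervals. Mir195a lies at 3.33 and Mir15a at 2.11, whereas Mir322 lies at -0.19, just under the line of no difference.

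Mir195a was 10.0-fold higher in replicate 1, with a log2 ratio of 3.33 (exact 95% interval 3.27 to 3.39), and its difference ranked 5 in size among the 309 genes. Mir15a followed with 2.11 (interval 2.03 to 2.20), at rank 10, and Mir16-1 with 1.49 (1.39 to 1.59), at rank 31. The other 5 genes differed less than 2-fold. Mir15b had a log2 ratio of 0.80 (0.74 to 0.87), Mir497 of 0.78 (0.68 to 0.89), Mir503 of 0.65 (0.28 to 1.03) and Mir16-2 of 0.61 (0.45 to 0.77). The ratios of Mir16-1 and Mir16-2 hold only reads unique to a locus, so the difference in miR-16-5p was not measured. Mir322 had -0.19 (-0.23 to -0.15), at rank 241 in size, a difference that passed the test at its depth while being smaller than the median absolute log2 ratio of 0.51 over all tested genes. The least deeply counted member was Mir503, with an adjusted p of 6.67e-04 in the exact binomial test.

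Ratios to Mir322 within a library do not depend on the scaling of the totals and are given as a description, since Mir322 was chosen for this after its values were seen. For 1 read of Mir322 there were 2.71 reads of Mir195a in replicate 1 and 0.237 in replicate 2. Mir15a had 0.607 reads in replicate 1 and 0.123 in replicate 2, and Mir15b had 0.564 and 0.284. Mir195a thus outnumbered Mir322 in replicate 1, and by assigned reads no other member did so in either library.

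Genes of a pair are known to come from a shared primary transcript, and their ratio was compared between the libraries. All 4 ratios differed beyond counting error (Fisher's exact test, two-sided, adjusted over the 4 pairs), but by very different amounts. Mir195a had 13.2 reads for each read of Mir497 in replicate 1 (interval 12.7 to 13.7) and 2.27 in replicate 2 (interval 2.11 to 2.44), a log2 change of 2.54 (2.42 to 2.66). This change, 5.83-fold, was the largest of the 4: Mir195a was 10.0-fold and Mir497 1.72-fold higher in replicate 1.

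Mir16-1 had 0.558 reads for each read of Mir15a in replicate 1 (interval 0.538 to 0.579) and 0.860 in replicate 2 (0.790 to 0.935), a log2 change of -0.62 (adjusted p = 3.53e-20). Mir16-2 had 0.149 reads for each read of Mir15b in replicate 1 (0.139 to 0.158) and 0.170 in replicate 2 (0.154 to 0.187), a log2 change of -0.19 (adjusted p = 0.0248). The Smc4 pair had the smallest change of the 4. Mir503 had 0.0159 reads for each read of Mir322 in replicate 1 (0.0138 to 0.0183) and 0.00890 in replicate 2 (0.00712 to 0.0110), a log2 change of 0.84 (adjusted p = 4.63e-06). In both Mir15/16 pairs the ratio holds only the Mir16 reads that were unique to a locus.

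**Figure D3:**
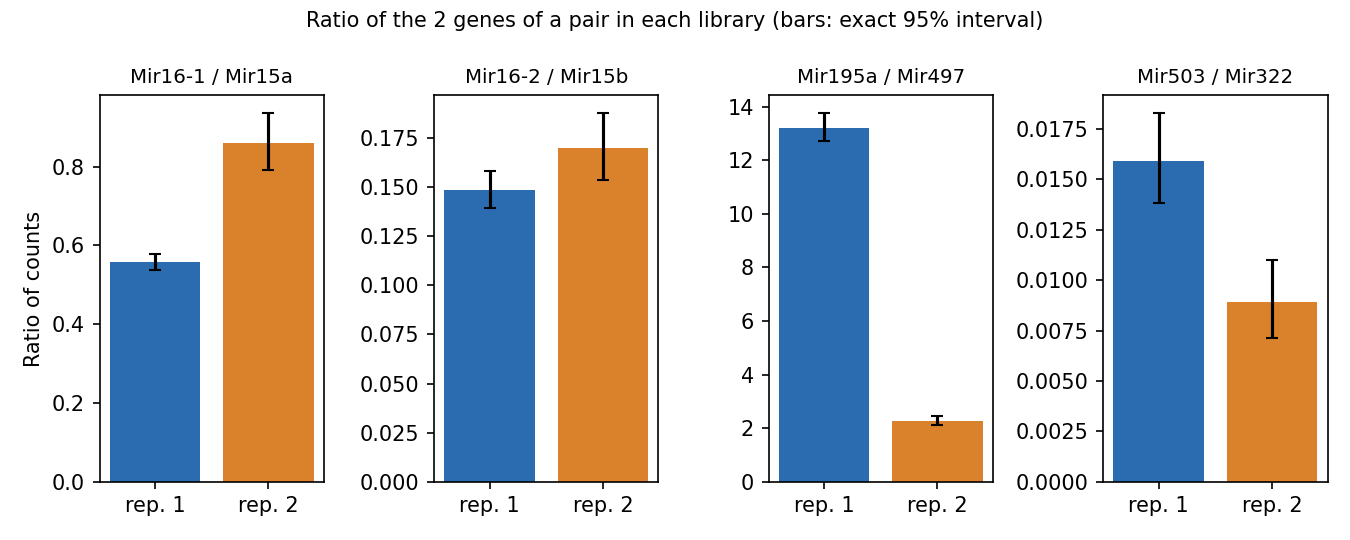
Ratio of the counts of the 2 genes of each pair, replicate 1 in blue left of replicate 2 in orange, with exact 95% intervals as error bars and a separate axis from 0 in each panel. The ratio of Mir195a to Mir497 is 13.2 in replicate 1 and 2.27 in replicate 2, and that of Mir16-2 to Mir15b is 0.149 and 0.170.

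Further microRNA genes lie within 10 kb of the group, 5 on chromosome X and Mir497b on the opposite strand of Mir497. Like Mir322, the more abundant genes of the chromosome X cluster were slightly lower in replicate 1. Mir351, whose seed is unrelated, had 349 CPM in replicate 1 and 417 CPM in replicate 2 (log2 ratio -0.33, interval -0.44 to -0.22), and Mir542 had 67.4 and 84.1 CPM (-0.39, -0.64 to -0.14). These 2 of the 4 neighbours tested passed the exact binomial test, both as lower in replicate 1. With no filter on low counts Mir542 did not pass (adjusted p = 0.102). Mir450b, with 92 and 70 counts in replicates 1 and 2 (log2 ratio -0.22), and Mir450-2, with 22 and 11 (0.39), did not pass, and Mir450-1, with 8 and 1, was below the filter. Mir503, between Mir322 and Mir351, was thus higher in replicate 1 while the genes on either side of it were lower.

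**Figure D4:**
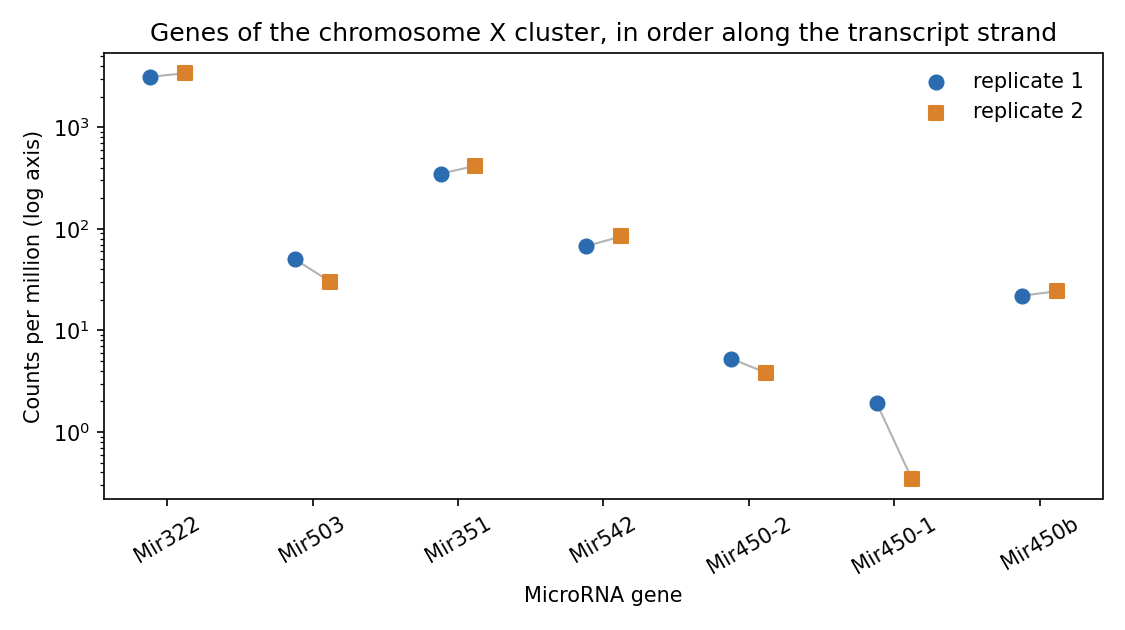
Level in CPM (log axis) of the genes of the chromosome X cluster in their order along the transcribed strand, with replicate 1 as circles and replicate 2 as squares. Mir322 and Mir351 are slightly lower in replicate 1, at 3133 and 349 CPM, than in replicate 2, at 3397 and 417 CPM, and Mir503 is higher, at 49.9 against 30.2 CPM.

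The strand of the reads matters for Mir497 alone within the group, because Mir497b overlaps it on the other strand. In the column that ignores strand Mir497 was listed at 0 in both libraries, since its reads were then ambiguous. On the strand of Mir497 there were 2693 reads in replicate 1 and 1023 in replicate 2, against 0 and 1 on the strand of Mir497b. The other 7 genes had no read on the opposite strand in either library. The reads at this site therefore lay almost wholly on the strand of Mir497.

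Among the mature sequences searched, the seed AGCAGCA also occurs in products of 4 genes outside the group, Mir195b, Mir6342, Mir6353 and Mir6419. The search did not cover every chromosome, so further genes may carry it. All 4 had 0 counts in both libraries, which allows up to 0.717 CPM in replicate 1 and 1.04 CPM in replicate 2 of reads unique to a locus. Among them miR-195b is shown for its likeness to miR-195a-5p, seed in capitals.
miR-195b: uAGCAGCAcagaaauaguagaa
These 4 genes therefore added no assigned reads to those of the group.

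Measured by distance on log2(CPM + 0.5) over the 2 libraries, the genes outside the group nearest to Mir322 were Mir155 (3321 CPM in replicate 1, 4122 in replicate 2) and Mir93 (2424 and 3187). Those nearest to Mir15b were Mir208a, of a myosin heavy chain intron (1638 and 1074 CPM), and Mir185 (1551 and 1187). Mir195a had no close neighbour: the nearest, Mir214 (3091 and 976 CPM), lay at a distance of 1.49, against 0.291 for Mir155 from Mir322.

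Marker microRNAs of cell types also differed between the libraries, some in the direction of Mir195a and some against it. Summed levels were higher in replicate 1 for endothelial (3 genes, 176135 against 49984 CPM in replicate 2), cardiomyocyte (7 genes, 6544 against 4789), fibroblast (5 genes, 5305 against 3732), erythroid (3 genes, 1747 against 1328), epithelial (11 genes, 381 against 278) and skeletal muscle (2 genes, 23.6 against 11.1) markers. They were lower for smooth muscle (2 genes, 32911 against 56334 CPM) and leukocyte (5 genes, 5998 against 8349) markers. These sums hold only reads unique to a locus, so they do not rank the cell types against each other. The cardiomyocyte sum came mainly from Mir499 and Mir208a, with means of 4202 and 1356 CPM, whereas Mir1a-2 had 70.0 CPM. Against shares of 28.2% higher and 35.3% lower in replicate 1 over all 309 tested genes, 3 of 4 cardiomyocyte, 1 of 3 endothelial, 1 of 3 fibroblast, 2 of 3 erythroid, 5 of 8 epithelial and 1 of 2 skeletal muscle markers were higher in replicate 1. All 5 leukocyte, both smooth muscle, 2 endothelial, 1 fibroblast, 1 erythroid and 1 epithelial markers were lower. The higher endothelial sum rested on Mir126a (log2 ratio 1.83), whereas Mir221 (-0.89) and Mir222 (-0.73) were lower in replicate 1. Mir199a-1 was the marker at 0 in both libraries, which covers only reads unique to its locus and does not show that its products were absent. The part of cell composition in the differences of Mir195a, Mir15a and Mir16-1 was not tested, and in bulk tissue fewer cells of a type and less RNA per cell cannot be told apart.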

How the data were processed

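Small RNA (labelled size range under 30) was sequenced from 2 heart libraries. The deposited tables hold unnormalized whole-number read counts for each microRNA gene, with columns for reads regardless of strand, on the gene's strand and on the opposite strand; per the deposited readme, build mm10 and annotation M21 were used. The aligner is not given in the sources used here. Reads that were unmapped (19.0% and 17.5% in replicates 1 and 2), at several loci, outside genes (6.94% and 7.11%) or ambiguous (0%) were left out of totals and tests. The gene-strand column was used, and CPM was computed over assigned counts. A host was a containing gene on the same strand. Genes were kept with edgeR 4.0.16 filterByExpr (minimum count 10) and scaled by TMM in R 4.3.3; tests, intervals and adjustment used scipy 1.17.1, with a threshold of 0.05. With 1 group of 2 libraries no quasi-likelihood test was possible. Alternatives covered DESeq2 1.42.0 size factors, plain totals, the filter, the strand column, the detection threshold, the denominator and leaving out each replicate. The named genes were the members, genes with the miR-15a-5p seed, neighbours within 10 kb, for each of the 3 most abundant members the 2 nearest genes by level, and cell type markers. Members and lists were chosen with earlier results of these data known. The binomial and Fisher steps were tested on counts simulated with counting error alone. The scaling and the assignment of reads were not tested in this way.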

Additional observations from a re-analysis of the deposited data

How the results depend on the processing

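The direction and call of the members' log2 ratios were the same in all 31 values under other settings (DESeq2 size factors, plain totals, no filter on low counts, reads regardless of strand), and 8 members differed between the libraries in each except the last, where Mir497 has no value and 7 differed. The summed share was 0.379% with all reads, unassigned ones included, as the denominator. It was 1.58% regardless of strand and ran from 0.649% to 1.73% when a replicate was left out. Regardless of strand, 7 members were detected, and the ratio of Mir195a to Mir497 could not be computed. With replicates left out in turn, the ratio of Mir195a to Mir497 ran from 2.27 to 13.2, and both ends rest on 1 library each. The median log2 ratio of all tested genes stayed between -0.01 and 0.09 under every scaling. The log2 ratio of Mir322 was -0.19 in the main setting, -0.12 with plain totals and -0.07 with no filter on low counts. The size of this small difference thus depended on the scaling. No paired analysis was possible because the design holds 1 group. Depth limits Mir503, with 87 counts in replicate 2, the most. Reads at several loci limit Mir16-1 and Mir16-2, and with them the summed share and the shares of the loci.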
